A study of Mus musculus with 6 samples.

Results

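The constitutive proteasome genes were taken as every protein-coding gene in the deposited table whose symbol begins with Psma, Psmb, Psmc, Psmd or Psmg and a number, leaving out the immunoproteasome genes Psmb8, Psmb9 and Psmb10. This rule found 41 of the 54532 genes listed. They were 7 alpha subunits of the core particle, 7 beta subunits of the core particle, 6 ATPase subunits of the 19S regulatory particle, 11 non-ATPase subunits of the 19S particle and 7 assembly chaperones (Psmg1 to Psmg4, Psmd5, Psmd9 and Psmd10). The rule also took in the tissue-restricted core genes Psma8 and Psmb11 and, through its symbol, Psmc3ip, which codes for a meiotic recombination factor and for no part of the proteasome. The rule reads symbols and gene type only, although it was set with earlier results of these data known.

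CD4+ T cells from the spleens of male C57BL/6 mice aged 6 to 8 weeks were cultured under Th1-polarizing conditions, with antibodies to CD3 and CD28, IL-2, IL-12 and an antibody to IL-4. The Th1 group received vehicle (0.1% DMSO), and the ALX-5407 group received ALX-5407 at 500 nM, which blocks glycine uptake by the transporter GlyT1. RNA was sequenced from 3 cultures of each group, labelled as biological replicates and as harvested at 72 h, and the study asked how the inhibitor changes the Th1 transcriptome. The labels and series text give 72 h of ALX-5407, whereas the methods give a shorter exposure, and the labels describe capture of polyadenylated RNA where the methods describe removal of ribosomal RNA. No genetic change is described for the cells, no source ties a culture to a single mouse, and the p-values given here measure the spread between these cultures.

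The 26S proteasome is the main protease of the cytosol and nucleus. Its core particle is a stack of alpha and beta rings, in which the alpha rings form the gate and the subunits coded by Psmb5, Psmb6 and Psmb7 cut the peptide chain. The 19S regulatory particle binds ubiquitinated proteins, removes the ubiquitin and threads the unfolded chain into the core with a ring of ATPases. In activated T cells, it serves the turnover of cell cycle and signalling proteins and the supply of peptides for MHC class I.

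Each library held between 30801753 and 36727788 counts, and the markers of T cells (Cd3d, Cd3e, Cd3g, Cd4, Trac, Cd2 and Cd5) were present in all 6. Levels are given as CPM, the count of a gene relative to the library's total after TMM scaling. A gene was called at an adjusted p under 0.05 (quasi-likelihood test of edgeR, Benjamini-Hochberg adjustment, 15938 genes). Summed T cell markers ranged from 2350 to 2650 CPM in Th1 and from 1980 to 2090 CPM with ALX-5407, and 4 of the 7 fell while 1 rose. Summed Th1 markers ranged from 1160 to 1320 CPM in Th1 and from 955 to 993 CPM with ALX-5407. The lower sum lay in Ifng, at 660 ± 106 CPM in Th1 and 383 ± 18.1 CPM with ALX-5407 (SD, n = 3), whereas the lineage factor Tbx21 was called higher at a log2 fold change of 0.34 and Cxcr3 and Il12rb2 were not called. The 4 B cell markers summed to between 5.52 and 6.73 CPM in Th1 and between 7.42 and 10.4 CPM with ALX-5407, with 2 called higher. The 2 CD8 markers summed to between 9.25 and 9.59 CPM in Th1 and between 6.71 and 8.87 CPM with ALX-5407. The 6 myeloid markers summed to between 70.0 and 75.6 CPM in Th1 and between 24.2 and 31.7 CPM with ALX-5407, nearly all of it Ly6g, while S100a8 was at 0 in every library. NK and red cell markers stayed at or below 2.4 CPM in every library. The part of these marker shifts in the results that follow was not tested, and in bulk RNA fewer cells of a type and less RNA per cell cannot be told apart.

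The stretch before the annotated start of a gene holds elements for the factors that transcribe it. Of the 41 genes, 33 had a RefSeq promoter window (GRCm38.p6, 250 bases before to 50 after the start), with 35 windows in all. Exact matches on both strands were sought for TGACNNNGC, the core of the antioxidant response element bound by NRF1, which is the main activator of proteasome genes when the protease is inhibited, and for CCGGAAG, a motif of ETS factors. The upstream 250 bases are shown for the catalytic genes Psmb5 and Psmb6 and for Psmd12, which carry the first motif, and for Psmd11, which has the second motif and the second largest rise among the 19S genes. Capitals mark the matches to TGACNNNGC or CCGGAAG, on either strand, and each sequence reads 5′ to 3′ on the strand of its gene.
Psmb5 (chr14:54617996-54618245, minus strand): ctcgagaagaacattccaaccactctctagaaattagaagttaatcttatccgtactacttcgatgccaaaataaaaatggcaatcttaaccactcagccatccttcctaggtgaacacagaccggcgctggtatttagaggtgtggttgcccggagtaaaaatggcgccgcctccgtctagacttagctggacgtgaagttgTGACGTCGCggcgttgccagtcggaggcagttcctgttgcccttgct
Psmb6 (chr11:70525107-70525356, plus strand): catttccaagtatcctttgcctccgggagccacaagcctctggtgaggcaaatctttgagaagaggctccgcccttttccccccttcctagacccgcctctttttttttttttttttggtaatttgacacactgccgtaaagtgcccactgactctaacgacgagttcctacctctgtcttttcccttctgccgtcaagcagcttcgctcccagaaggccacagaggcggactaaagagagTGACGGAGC
Psmd12 (chr11:107479278-107479527, plus strand): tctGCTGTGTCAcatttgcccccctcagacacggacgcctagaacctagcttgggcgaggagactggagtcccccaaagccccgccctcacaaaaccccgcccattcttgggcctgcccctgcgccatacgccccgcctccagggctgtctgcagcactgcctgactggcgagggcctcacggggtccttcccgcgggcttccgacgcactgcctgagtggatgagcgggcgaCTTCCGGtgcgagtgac
Psmd11 (chr11:80428365-80428614, plus strand): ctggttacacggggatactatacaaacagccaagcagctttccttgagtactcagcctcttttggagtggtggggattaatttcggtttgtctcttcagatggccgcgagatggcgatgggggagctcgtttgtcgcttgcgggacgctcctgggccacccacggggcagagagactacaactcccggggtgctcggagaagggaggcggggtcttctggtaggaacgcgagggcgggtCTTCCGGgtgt
The Psmd12 stretch carries both motifs, and in Psmd11 and Psmd12 the ETS motif stands as its complement, CTTCCGG.

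Among the 33 genes, TGACNNNGC occurred in the windows of 5 genes (Psmb5, Psmb6, Psmc6, Psmd9 and Psmd12), or 14.3% of the windows. The same letters were found in 12.4% of all 32851 RefSeq windows and in 14.3% of the windows of tested protein-coding genes, so the share among proteasome genes was that of genes in general. CCGGAAG occurred in 14 of the 35 windows (40.0%), against 8.86% of all windows and 17.4% of those of tested protein-coding genes. It was found in 9 of the 14 windowed 19S genes and in 1 of the 11 windowed genes of the core particle, Psma6. Of the windowed 19S genes with the motif 7 of 9 were called higher, and of those without it 2 of 5. Of the 17 19S genes that the rule took in, 12 were called higher (70.6%), and no link between motif and change was tested. CCAAT, the box bound by NF-Y, occurred in 37.1% of the windows, against 37.4% of all windows. TTGCATCA, a motif of C/EBP and ATF factors, occurred only in Psmd13 among these windows. Median GC content was 57.3% in the proteasome windows and 52.7% in all windows. A match describes the letters of the window and does not show that a factor binds there.

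ALX-5407 left proteasome transcripts as a group moderately higher, in the genes of the 19S regulatory particle and the beta subunits more than in those of the alpha subunits. Of the 41 genes, 39 passed the filter on low counts, 22 were called higher, 3 were called lower (Psma4, Psma7 and Psmd8) and 14 were not called. Without Psmc3ip, 21 of 38 were called higher and 3 lower. Across all tested genes, 24.5% were called higher and 23.2% lower, so 22 of 39 (56.4%) stands above the background in the upward direction and 3 of 39 (7.69%) below it in the downward direction. The median log2 fold change of the 39 genes was 0.25, against 0.01 over all tested genes and 0.05 over tested protein-coding genes. Of the latter, 29.5% were called higher and 23.2% lower. No proteasome gene passed the cutoff of the study, an adjusted p under 0.05 with a log2 fold change beyond 1 in either direction, which 10% of all tested genes passed. In 23 of the 39 genes, all 3 ALX-5407 libraries lay above all 3 Th1 libraries in CPM (28.4% of all tested genes), and in 6 all 3 lay below (27.1%). When Th1 replicate 1 was left out, 14 genes were called higher in place of 22, and when Th1 replicate 3 was left out, 5 were called lower in place of 3. The number called lower was 6 with upper-quartile factors, which moved the median of all genes to -0.05, and also 6 when protein-coding genes alone were fitted.

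**Figure D1:**
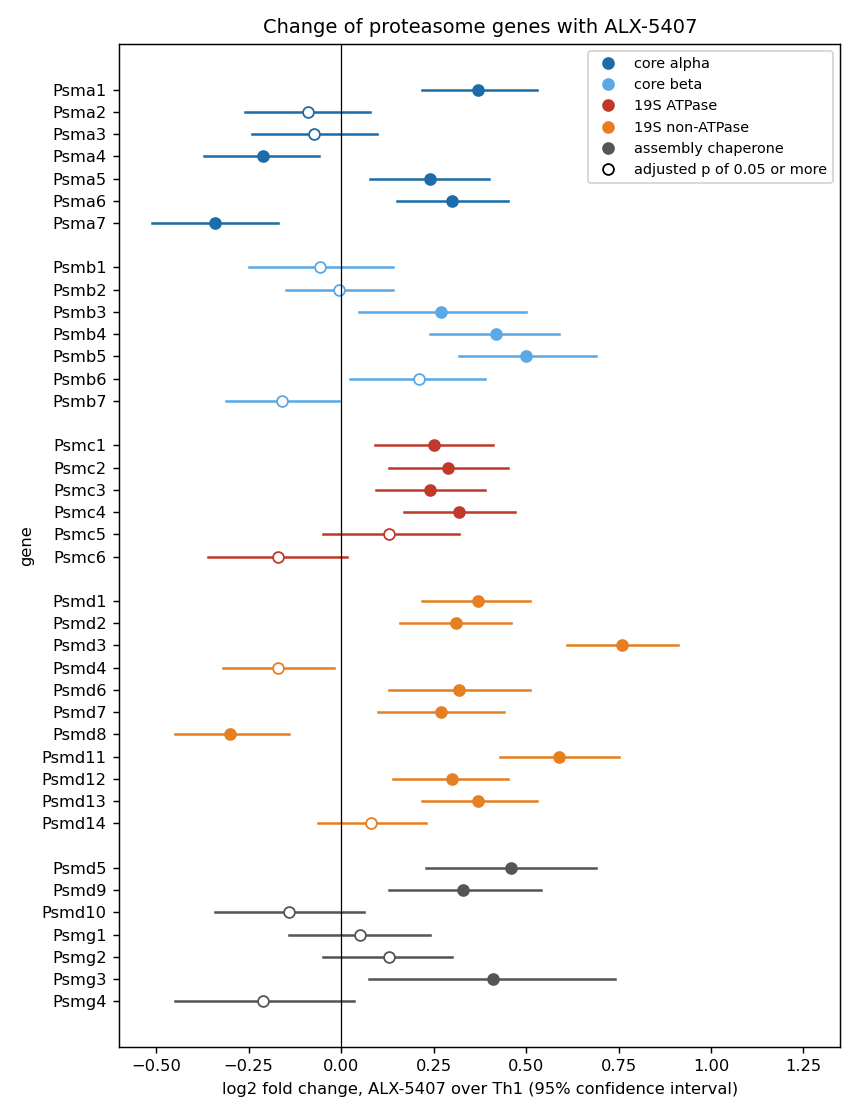
Log2 fold change of ALX-5407 over Th1 for the 38 tested proteasome genes, grouped by role; points are edgeR estimates, lines their 95% confidence intervals, and open points have an adjusted p of 0.05 or more. Psmd3 at 0.76 and Psmd11 at 0.59 lie furthest to the right, and Psma7 at -0.34 lies furthest to the left.

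The roles differed in how many of their genes rose. In the 19S particle, 12 of 17 genes were called higher (70.6%) and 1 lower, with a median log2 fold change of 0.29. Sem1 and Adrm1, which are 19S subunits without a Psm symbol, are outside this count. Sem1 was called lower at -0.69 and Adrm1 higher at 0.19. In the core particle, 6 of 14 were called higher (42.9%) and 2 lower, with a median of 0.10. Of all tested protein-coding genes, 29.5% were called higher. Within the core, the alpha genes were split, with 3 higher, 2 lower and a median of -0.07, whereas the beta genes had 3 higher, 0 lower and a median of 0.20. Within the 19S particle, 4 of 6 ATPase genes and 8 of 11 non-ATPase genes were called higher, with medians of 0.25 and 0.31. Among the assembly chaperones, 3 of 7 were called higher and 0 lower, with a median of 0.13. No test of the difference between roles was made. The roles also differ in coding length, as described below. Of tested protein-coding genes, 34.2% were called higher at coding lengths of 1000 bases or more, against 19.6% of shorter ones.

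The summed level of the 19S genes was higher in every ALX-5407 library, whereas that of the core genes overlapped between groups. The 17 genes of the 19S particle summed to 1978, 1982 and 2026 CPM in Th1 replicates 1 to 3 and to 2328, 2275 and 2249 CPM with ALX-5407, a ratio of means of 1.14 with no overlap between groups. Sem1, at a mean of 100 CPM in Th1 and 62.0 CPM with ALX-5407, is not in the 19S sums or ratios given here. Nor is Adrm1, at a mean of 65.9 CPM in Th1 and 74.9 CPM with ALX-5407. The 11 non-ATPase genes summed to 1369 ± 8.33 CPM in Th1 and 1603 ± 23.3 CPM with ALX-5407 (SD, n = 3), a ratio of 1.17. The 6 ATPase genes summed to 626.0 ± 32.3 CPM in Th1 and 681.4 ± 17.3 CPM with ALX-5407 (SD, n = 3), a ratio of 1.09. The 14 core genes summed to 1597, 1599 and 1780 CPM in Th1 and to 1799, 1747 and 1666 CPM with ALX-5407, a ratio of means of 1.05. Here the groups overlapped, since Th1 replicate 3 lay above 2 of the 3 ALX-5407 libraries. The 7 alpha genes summed to 917.2 ± 35.6 CPM in Th1 and 918.4 ± 30.5 CPM with ALX-5407 (SD, n = 3), a ratio of 1.0, with rises in some genes beside falls in others. The 7 beta genes summed to 741.4 ± 74.6 CPM in Th1 and 819.1 ± 41.0 CPM with ALX-5407 (SD, n = 3), a ratio of 1.1, with overlap between groups. Per kb of the main transcript, the one with the longest coding sequence (a length chosen after the data were seen), the summed 19S level divided by the summed core level was 0.793 ± 0.0358 in Th1 and 0.832 ± 0.0188 with ALX-5407 (SD, n = 3). Each ALX-5407 value of this ratio (0.819, 0.824 and 0.853) lay above each Th1 value (0.813, 0.815 and 0.752), by as little as the gap from 0.815 to 0.819. On the same scale, the summed level with ALX-5407 over that in Th1 was 1.12 for the 19S genes, 1.13 for the beta genes and 1.0 for the alpha genes.

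**Figure D2:**
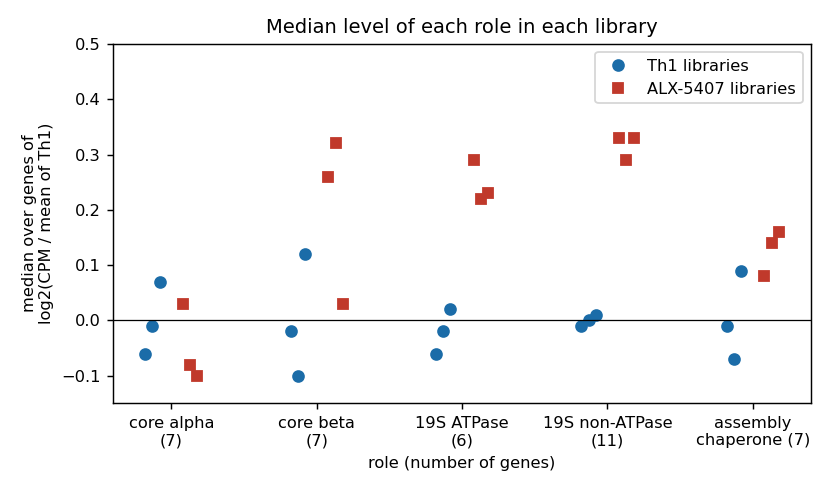
Median over the genes of each role of log2(CPM divided by the mean of the 3 Th1 libraries), 1 point per library; circles are Th1 and squares ALX-5407. The ALX-5407 libraries sit at 0.29 to 0.33 for the 19S non-ATPase genes and at -0.10 to 0.03 for the core alpha genes, where they overlap the Th1 libraries.

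Alpha subunits form the outer rings of the core and its gate. Psma1 had 115, 122 and 132 CPM in Th1 and 160, 161 and 156 CPM with ALX-5407, so that every treated library lay above every Th1 library. Its log2 fold change was 0.37 (SE 0.0724, adjusted p = 4.86e-04 in edgeR). Psma6 moved in the same way, with 98.0, 102 and 108 CPM in Th1 and 129, 126 and 124 CPM with ALX-5407, and a log2 fold change of 0.30 (adjusted p = 0.00205). Psma7 (chr2:180036374-180042433, GRCm38) moved against them, with 167, 173 and 155 CPM in Th1 and 144, 128 and 120 CPM with ALX-5407. The groups did not overlap, and its log2 fold change was -0.34 (SE 0.0795, adjusted p = 0.00224). Psma4 also fell, from 150, 166 and 161 CPM to 144, 128 and 140 CPM, by 0.21 on the log2 scale (adjusted p = 0.0238), again without overlap. This call ended when Th1 replicate 2 or ALX-5407 replicate 2 was left out and with an offset for gene length.

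The other 3 alpha genes were Psma5, called higher at a log2 fold change of 0.24 (adjusted p = 0.0167), and Psma2 and Psma3, which were not called at -0.09 and -0.07. Psma5 lost its call without Th1 replicate 1, Th1 replicate 2 or ALX-5407 replicate 2, and with upper-quartile factors. Reads of Psma3 and Psma5 are the least certain, because processed pseudogenes that match their transcripts held 28.6% and 13.3% of the counts of gene and copies together, and how reads with several matches were counted is not stated. Adding the copies left the log2 ratios of the means at -0.09 for Psma3 and 0.23 for Psma5. The alpha ring is built from 1 copy of each alpha subunit, yet its 7 transcripts did not move together.

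Beta subunits form the inner rings and carry the active sites. Psmb5, the chymotrypsin-like site and the main target of proteasome inhibitors in the clinic, lies at chr14:54614119-54618022 (GRCm38) and its upstream sequence is shown above. It had 35.3, 31.9 and 37.9 CPM in Th1 and 51.9, 50.6 and 46.6 CPM with ALX-5407. The groups did not overlap, and the log2 fold change of 0.50 (SE 0.0858, adjusted p = 1.46e-04 in edgeR), or 1.42-fold, was the largest in the core particle. Psmb6, the caspase-like site, had 91.8, 86.7 and 101 CPM in Th1 and 111, 116 and 95.3 CPM with ALX-5407. Its groups overlapped, and its log2 fold change of 0.21 (95% confidence interval 0.02 to 0.39) was not called (adjusted p = 0.059), although it was under 7 of 17 alternatives, including without Th1 replicate 3 or ALX-5407 replicate 3. Psmb7, the trypsin-like site, had 88.4, 86.0 and 89.0 CPM in Th1 and 83.0, 73.4 and 79.6 CPM with ALX-5407. All treated libraries lay below the Th1 libraries, but the log2 fold change of -0.16 was not called (adjusted p = 0.0847), although it was under 5 of 17 alternatives. Of its exon bases, 11.8% overlap Nek6 on the other strand, and strand use in counting is not stated. Of the 3 catalytic genes, 1 was called higher, and the 95% confidence intervals of the other 2 lay on opposite sides of 0. The difference between these genes was not tested.

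Psmb4, a non-catalytic subunit, had 135, 131 and 162 CPM in Th1 and 199, 192 and 180 CPM with ALX-5407. The groups did not overlap, with a log2 fold change of 0.42 (adjusted p = 6.59e-04 in edgeR). Psmb3, also non-catalytic, had 78.8, 82.4 and 106 CPM in Th1 and 118, 112 and 93.9 CPM with ALX-5407. It was called higher at 0.27 (adjusted p = 0.0442) although its groups overlapped, and the call ended without Th1 replicate 1 or 2 or ALX-5407 replicate 1 or 2, and with RLE or upper-quartile factors. Psmb1 was not called at -0.06 (95% confidence interval -0.25 to 0.14). Psmb2 had the log2 fold change nearest to 0 of the 39 genes, with 82.1, 82.4 and 80.7 CPM in Th1 and 82.1, 81.6 and 80.6 CPM with ALX-5407, and its interval ran from -0.15 to 0.14.

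**Figure D3:**
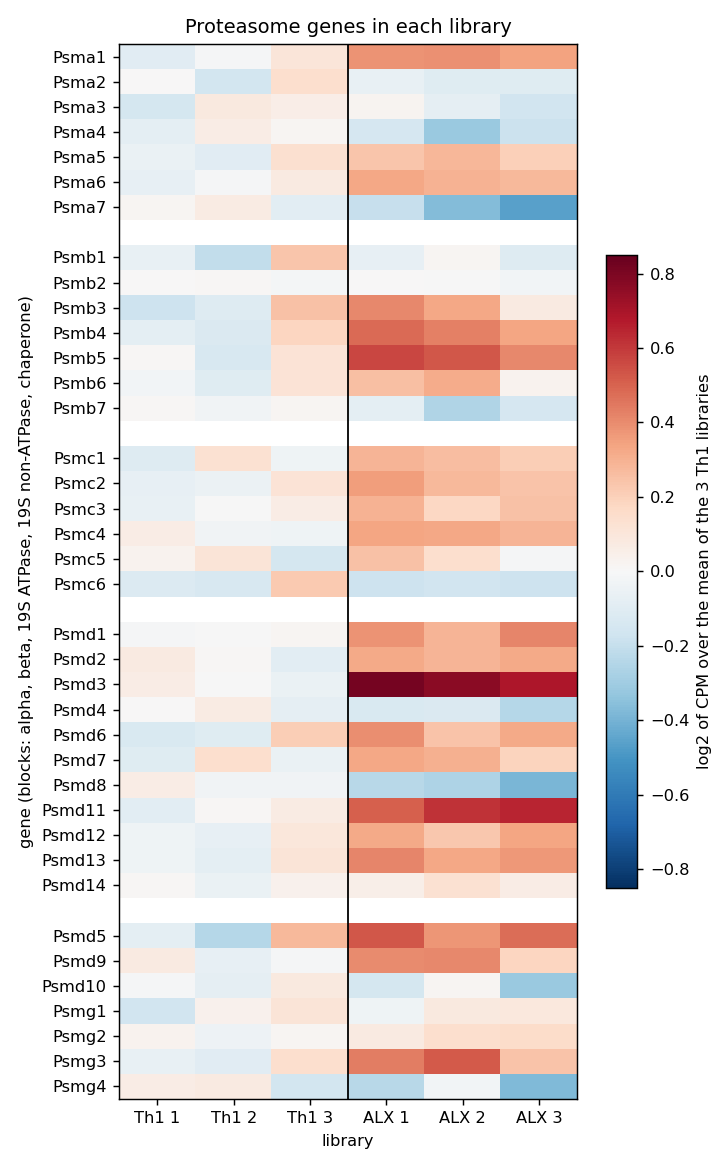
Colour gives log2 of CPM over the mean of the 3 Th1 libraries for the 38 tested proteasome genes (lines) in the 6 libraries (columns), red for higher and blue for lower. Psmd3, Psmd11 and Psmb5 are red in all 3 ALX-5407 libraries, and Psma7, Psma4 and Psmd8 are blue in all 3.

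The 6 ATPases form the ring of the 19S base that unfolds substrates. Psmc4 had 66.0, 61.9 and 61.7 CPM in Th1 and 79.7, 79.3 and 77.1 CPM with ALX-5407, with a log2 fold change of 0.32 (SE 0.0707, adjusted p = 0.00152 in edgeR). Psmc2 had 79.6, 80.6 and 90.6 CPM in Th1 and 107, 101 and 98.8 CPM with ALX-5407, with a log2 fold change of 0.29 (adjusted p = 0.00452). In both, no treated library fell into the Th1 range. Psmc3 had 99.1, 103 and 108 CPM in Th1 and 127, 117 and 123 CPM with ALX-5407, and was called higher at 0.24 (adjusted p = 0.00925). It overlaps Slc39a13 on the other strand in 8.2% of its exon bases. Psmc1 was called higher at 0.25 (adjusted p = 0.012), and without Th1 replicate 1 neither Psmc1 nor Psmc3 was called. The remaining pair was not called: Psmc5 stood at 0.13 and Psmc6 at -0.17. In Psmc6, Th1 replicate 3 stood apart at 243 CPM against 192 and 189 CPM in the other Th1 libraries, while the ALX-5407 libraries lay between 184 and 186 CPM. Without that library, its log2 fold change was -0.06, but it was called lower under 6 of 17 alternatives, one of them without Th1 replicate 2.

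The non-ATPase subunits make up the rest of the base and the lid, where ubiquitin chains are bound and cut. Psmd3, a scaffold subunit of the lid, lies at chr11:98682554-98695979 (GRCm38) and changed most. It had 114, 109 and 105 CPM in Th1 and 192, 186 and 176 CPM with ALX-5407, far apart in relation to the spread within each group. Its log2 fold change was 0.76 (SE 0.0705, 95% confidence interval 0.61 to 0.91, adjusted p = 3.02e-07 in edgeR), or 1.69-fold. Psmd11, a lid subunit that braces the lid against the core and whose upstream sequence is shown above, lies at chr11:80428615-80473248. It had 72.7, 77.7 and 81.2 CPM in Th1 and 110, 118 and 121 CPM with ALX-5407, again without overlap. Its log2 fold change was 0.59 (SE 0.0741, adjusted p = 7.26e-06), or 1.5-fold. Psmd1, a scaffold of the base with the longest coding sequence of these genes, had 95, 95.7 and 96.7 CPM in Th1 and 125, 117 and 128 CPM with ALX-5407. The Th1 libraries were almost level, and the log2 fold change was 0.37 (adjusted p = 3.88e-04).

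Psmd8, a lid subunit at chr7:29174188-29180701 (GRCm38), was the 1 gene called lower among the 17 of the 19S particle. It had 256, 240 and 240 CPM in Th1 and 208, 205 and 187 CPM with ALX-5407, so that every treated library lay below every Th1 library. Its log2 fold change was -0.30 (SE 0.0712, adjusted p = 0.00267 in edgeR). The other 5 genes called higher were Psmd13 at 0.37, Psmd6 at 0.32, Psmd2 at 0.31, Psmd12 at 0.30 and Psmd7 at 0.27, with adjusted p-values between 5.78e-04 and 0.0101. Psmd6 and Psmd7 lost their calls without Th1 replicate 1. Psmd13 overlaps Sirt3 on the other strand in 10.1% of its exon bases. The remaining 2 non-ATPase genes were not called. Psmd14, the deubiquitinase of the lid, stood at 0.08 (95% confidence interval -0.06 to 0.23). Psmd4, a ubiquitin receptor, stood at -0.17 (95% confidence interval -0.32 to -0.02, adjusted p = 0.0587). Outside the rule, Adrm1 and Uchl5, whose products also act on ubiquitin at the 19S particle, were called higher at 0.19 and 0.26. Psmd4 was called lower under 8 of 17 alternatives, among them 4 of scaling or gene set, the replicate block and leaving out Th1 replicate 3.

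Assembly chaperones bind half-built particles and leave before they are complete. Psmd5, a chaperone of the 19S base, had 36.9, 33.1 and 47.3 CPM in Th1 and 56.4, 50.7 and 54.4 CPM with ALX-5407. The groups did not overlap in spite of the spread in Th1, with a log2 fold change of 0.46 (SE 0.108, adjusted p = 0.00209 in edgeR). Psmd9, another chaperone of the base, rose from 20.1, 18.1 and 18.9 CPM to 25.1, 25.3 and 21.6 CPM, with a log2 fold change of 0.33 (adjusted p = 0.0105). Its call ended without Th1 replicate 2 or ALX-5407 replicate 2 and with an offset for gene length. Psmg3, a chaperone of the alpha ring, had only 4.67, 4.56 and 5.39 CPM in Th1 and 6.6, 7.0 and 5.76 CPM with ALX-5407. It was called at 0.41 (adjusted p = 0.0418) with the groups apart, and lost the call without Th1 replicate 1 or 2 or ALX-5407 replicate 1 or 2, and in DESeq2. Its partner Psmg4 stood at -0.21 (95% confidence interval -0.45 to 0.04) and was not called except without Th1 replicate 3, nor were Psmg1 at 0.05, Psmg2 at 0.13 and Psmd10 at -0.14.

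The matches of the rule outside the ordinary particle were low. Psma8, the alpha subunit of the testis proteasome, had 14, 7 and 9 counts in Th1 and 4, 0 and 6 with ALX-5407. Psmb11, the catalytic subunit of the thymus cortex, had 0 counts in every library except 3 in ALX-5407 replicate 2. Neither passed the filter, and neither was tested. Psmc3ip had 7.19, 8.20 and 6.56 CPM in Th1 and 9.57, 9.44 and 8.96 CPM with ALX-5407, and was called higher at 0.35 (adjusted p = 0.0416 in edgeR). The groups did not overlap, but 21.2% of its exon bases overlap Mlx on the other strand, and the call ended without Th1 replicate 1, Th1 replicate 3 or any 1 of the ALX-5407 libraries, and in DESeq2.

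Subunits that sit in the particle in equal numbers had unequal transcript levels. On the scale of CPM per kb of the main transcript, the 31 genes of the 26S particle ran from 27.1 for Psmd11 to 180.0 for Psma7 in Th1, a 6.64-fold range, with a median of 61.9. With ALX-5407 they ran from 39.6 for Psmd1 to 161.0 for Psmb4, a 4.07-fold range, with a median of 73.1. Psma7 and Psmd8, at the top of their roles in Th1 with 180.0 ± 9.7 and 159.0 ± 5.94 CPM per kb, were among the 3 genes that fell, but Psmb4, the top beta gene, rose and Psmc6, the top ATPase gene, was not called. Psmd11 and Psmb5, at the bottom of theirs with 27.1 ± 1.51 and 39.0 ± 3.31 CPM per kb (SD, n = 3), were among those that rose most, while Psma3, the lowest alpha gene at 42.3, was not called. The Th1 level is also the denominator of the change, so the 2 are not independent. Next to Psma7 stood Psmd8 and Psma4, at 137.0 ± 6.92, and the beta genes Psmb4, Psmb1, Psmb6 and Psmb3 followed between 116.0 and 121.0, closer together than their SDs of 9.32 to 19.5. Assembly chaperones were mostly lower, between 5.52 for Psmg3 and 34.6 for Psmg4. However, Psmg4 and Psmg1 (32.2) lay above the 19S genes Psmd1 (30.8) and Psmd11. The order depends on the length used, since Psma7 ranked 1 by the main transcript and 9 by the deposited gene length, which joins the exons of all transcripts. By the deposited length, Psma6 was the highest alpha gene at 83.1 CPM per kb in Th1 and Psmb7 the lowest beta gene at 25.7.

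**Figure D4:**
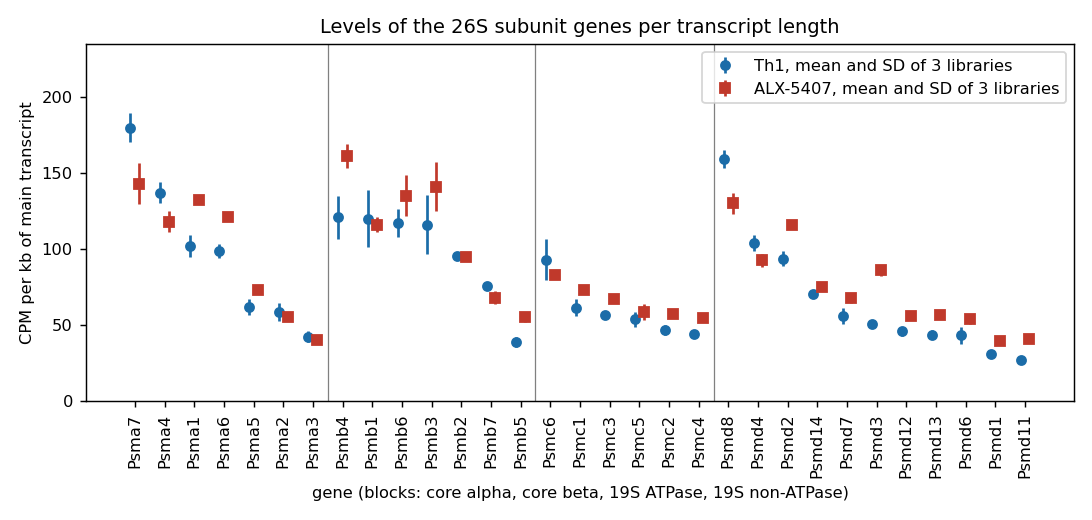
Level of each of the 31 genes of the 26S particle in CPM per kb of main transcript, as mean and SD of 3 libraries, ordered within each role by the Th1 mean; circles are Th1 and squares ALX-5407. Of the highest genes of the 4 blocks, Psma7 and Psmd8 were called lower with ALX-5407, Psmb4 was called higher and Psmc6 was not called.

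The role of a subunit and its coding length ran together in these genes. All 14 core genes had coding lengths under 1000 bases, as did only Psmd7 and Psmd14 among the 19S genes that the rule took in. Of the 16 genes of the 26S particle under 1000 bases, 7 were called higher and 2 lower, with a median log2 fold change of 0.14. Of the 15 at 1000 bases or more, 11 were called higher and 1 lower, with a median of 0.30. Across all tested protein-coding genes the direction was the same, with 19.6% called higher and 29.7% lower under 1000 bases against 34.2% and 20.1% at 1000 or more. Both length classes of proteasome genes thus lay above the medians of their classes, which were -0.06 and 0.11. Over the 31 genes, log2 fold change and log10 coding length had a Pearson r of 0.36 and a Spearman rho of 0.40, a description across genes that share the 6 libraries. With an offset for coding length fitted in protein-coding genes, an alternative added after the data were seen, the medians were -0.06 for alpha, 0.23 for beta, 0.18 for ATPase and 0.23 for non-ATPase genes, with 23 genes called higher and 5 lower. The beta and the 19S medians were then close together, so the higher median of the 19S genes over the beta genes and their greater length cannot be told apart.

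**Figure D5:**
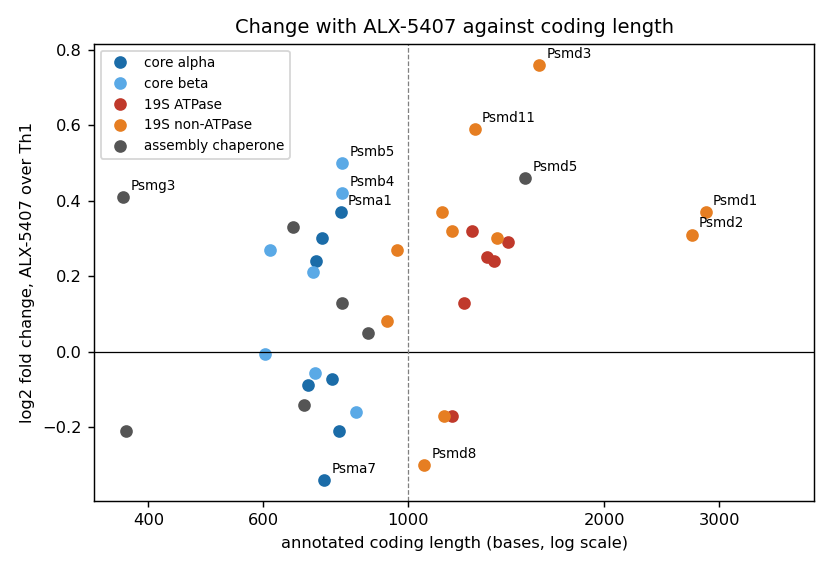
Log2 fold change of ALX-5407 over Th1 against annotated coding length on a log scale for the 38 tested proteasome genes, coloured by role; the dashed line marks 1000 bases. All alpha and beta genes lie left of the line, and 15 of the 17 genes of the 19S particle lie right of it.

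In lymphocytes, Psmb8, Psmb9 and Psmb10 replace the constitutive catalytic subunits to form the immunoproteasome. Psmb8 was called higher at a log2 fold change of 0.29 (adjusted p = 0.00601) and Psmb10 at 0.38 (adjusted p = 0.00948, edgeR), and Psmb9 was not called at 0.11. The Psmb10 groups overlapped, with 35.2 CPM in Th1 replicate 3 and 34.7 CPM in ALX-5407 replicate 3. Per kb of gene length, the ratio of Psmb8 to its counterpart Psmb5 was 1.54, 1.54 and 1.47 in Th1 and 1.27, 1.39 and 1.27 with ALX-5407, a difference of -0.21 on the log2 scale. For Psmb10 over Psmb7, the ratio was 0.698, 0.646 and 0.793 in Th1 and 1.14, 1.10 and 0.875 with ALX-5407, a difference of 0.54. For Psmb9 over Psmb6, it went from 0.890 ± 0.0334 to 0.837 ± 0.04 (SD, n = 3), a difference of -0.09. The ratios thus went down for 2 pairs and up for 1, with no overlap between groups in any of the 3. The size of a ratio depends on the length used, although its change between groups does not. In Th1, Psmb7 had 25.7 CPM per kb by the deposited gene length used here and 75.7 by the main transcript. The two-sided exact permutation test gave p = 0.1 for each, which is the smallest it can give with 3 against 3, and 0.1 after adjustment over the 3 pairs.

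Genes that work with the proteasome changed in both directions. Of 45 genes on 5 lists, 19 were called higher and 8 lower, with a median log2 fold change of 0.11. These are 42.2% and 17.8%, beside 24.5% and 23.2% of all tested genes. The list of immunoproteasome genes and activators had 4 higher and 1 lower of 7. Psme4, the nuclear activator PA200, had 101, 92.0 and 104 CPM in Th1 and 156, 166 and 188 CPM with ALX-5407, and rose by 0.78 (adjusted p = 1.03e-06 in edgeR). Psme3, the nuclear activator PA28 gamma, rose by 0.57 (adjusted p = 1.95e-05), whereas Psme1, of the interferon-induced activator PA28, fell by 0.30 (adjusted p = 0.00481). Of 9 other subunits, inhibitors and associated factors, 3 were higher and 1 lower. The lower gene was Sem1, a small 19S lid subunit without a Psm symbol, which fell by 0.69 (adjusted p = 2.24e-04), while Ube3c and Uchl5 were higher at 0.27 and 0.26.

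Among 6 ubiquitin genes, 3 were higher and 2 lower. Uba1, the main ubiquitin-activating enzyme, was higher at 0.50 (adjusted p = 2.17e-05 in edgeR). Rps27a and Ubb, which code for ubiquitin, the first of them fused to a ribosomal protein, fell by 0.93 and 0.40. Among 13 genes of p97 and the shuttle factors that bring substrates to the proteasome, 6 were higher (46.2%) and 3 lower (23.1%). Of all tested genes, 24.5% were called higher and 23.2% lower. Ubqln2 was higher at 0.83 and the p97 gene Vcp at 0.50, while Ubxn1 was lower at -0.40, Nsfl1c at -0.28 and Ufd1 at -0.27. Among 10 genes around NRF1, 3 (30.0%) were higher and 1 lower, a share of higher genes near that of protein-coding genes in general (29.5%). Nfe2l1, the gene of NRF1 itself, had 153, 166 and 132 CPM in Th1 and 203, 209 and 228 CPM with ALX-5407, with a log2 fold change of 0.50 (adjusted p = 1.26e-04). Of its small Maf partners, Mafk was higher at 0.46 and Maff lower at -0.54, while Mafg was not called at 0.17 (adjusted p = 0.0967). The 5 genes with TGACNNNGC in their windows had 3 called higher (Psmb5, Psmd9 and Psmd12), a share close to the 56.4% of all 39 tested genes.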

How the data were processed

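The authors deposited raw counts of reads per gene for 6 libraries, with gene coordinates and lengths on GRCm38 (mm10). The submitters' processing notes name fastp, HISAT2 2.0.5 and featureCounts 1.5.0-p3, and the treatment of strand and of reads with several matches is not given in the sources used here. Libraries were matched to groups by the condition and replicate number in the labels.

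From these counts, edgeR 4.0.16 (R 4.3.3) was run with filterByExpr defaults (minimum count 10, minimum total 15), TMM factors and the quasi-likelihood test, without covariates, on 15938 genes with Benjamini-Hochberg adjustment. DESeq2 1.42.0, limma 3.58.1 (voom), other scalings and filters, length offsets and leaving out each library were alternatives. Pseudogene copies were found by BLAST 2.17.0 (identity of at least 95% over 100 bases) in GENCODE M21. Promoter windows were RefSeq's. On simulated counts with known changes for 15655 genes, 98 of 109 genes with a log2 change of 1 and 43 of 88 with 0.5 were called, 0 with the wrong sign, and 6 unchanged genes were called. These shares are over genes of all levels. The simulation changed far fewer genes than were called in the data and gave all genes a common dispersion. The share of true changes found in the data can therefore differ from these. The common biological coefficient of variation was 0.0978.

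The named genes were, within each role, up to 3 with the smallest p and that with the largest change, the catalytic genes, called genes against the majority of their role, and matches outside the ordinary particle. For each list, up to 3 genes with the smallest p were named, and further genes, among them Adrm1 and Mafg, were added. One gene that this rule names is not reported here. Genes, roles and lists were chosen with earlier results of these data known. One of 46 list genes was not matched in the table by symbol and was not analysed here. Within each group, chi-square divided by its degrees of freedom was 5.6 to 22.3 for pairs of libraries, above the 1 that sampling noise gives, so each library counted as 1 replicate. The study's own test was DESeq2. Here it is an alternative.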

Additional observations from a re-analysis of the deposited data

How the results depend on the processing

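Of the 24 called proteasome genes, 15 kept call and direction under all 17 alternatives to the edgeR test, which included DESeq2, limma-voom and leaving out each library. The exceptions were Psma4, Psma5, Psmb3, Psmc1, Psmc3, Psmd6, Psmd7, Psmd9 and Psmg3, and Psmc3ip, which is outside the proteasome, lost its call as well. Of the 14 genes not called, 9 gained a call under at least 1 alternative. Psmd4 did so under 8 (lower), Psmb6 under 7 (higher), Psmc6 under 6 (lower) and Psmb7 under 5 (lower). Psmb2, Psmc5, Psmg1 and Psmg2 gained one only with the gene length offset, without or with the block, and Psmg4 only without Th1 replicate 3. Adding the fold cutoff of 1 (log2) left 0 genes called higher and 0 lower, both of the 39 tested genes and of the lists. Leaving out 1 library gave between 14 (without Th1 replicate 1) and 22 called higher and between 2 and 5 (without Th1 replicate 3) called lower, and for the lists between 15 and 18 higher and between 8 and 9 lower. The number called lower was 6 with upper-quartile factors and with protein-coding genes only, 5 with a mean count of at least 50 and 5 with the offset for coding length, which was added after the data were seen.

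Median log2 fold changes ranged, without 1 library, from -0.10 to -0.02 for alpha, 0.14 to 0.29 for beta, 0.20 to 0.27 for ATPase, 0.27 to 0.34 for non-ATPase and 0.09 to 0.15 for chaperone genes. The ATPase median was 0.20 with upper-quartile factors, 0.20 with protein-coding genes only, 0.29 with the gene length offset and 0.18 with the coding length offset. The non-ATPase median was 0.26 with upper-quartile factors, 0.28 with a mean count of at least 50, 0.26 with protein-coding genes only and 0.23 with the coding length offset. The chaperone median was 0.24 with the gene length offset. With that same offset, the alpha median was -0.14 and the beta median 0.31. The beta median then lay between those of the ATPase genes (0.29) and the non-ATPase genes (0.32). The log2 differences of the catalytic ratios ranged from 0.47 to 0.66 for Psmb10 over Psmb7, -0.26 to -0.19 for Psmb8 over Psmb5 and -0.11 to -0.05 for Psmb9 over Psmb6.

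The replicate number was not used as a pairing, since same-numbered libraries did not deviate together (r of -0.0084, 0.00355 and 0.0635). With the replicate number as a block, 23 of the 39 tested genes were called higher (22 without Psmc3ip) and 4 lower, and 19 and 9 list genes. With the block and the gene length offset together, 26 of the 39 were called higher and 5 lower, and the ATPase and chaperone medians were 0.29 and 0.24.

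The sign turned only in 5 genes that were not called. Psmb2 stood at 0.005 without the count filter, 0.202 with the gene length offset (adjusted p = 0.0207 in edgeR), 0.202 with block and gene length offset (adjusted p = 0.018), 0.064 with the coding length offset, and from -0.031 to 0.008 when 1 library was left out, the latter without ALX-5407 replicate 3. Without 1 library, Psmb1 ranged from -0.16 to 0.059 (without Th1 replicate 3) and Psmg1 from -0.033 (without Th1 replicate 1) to 0.095. Psmg1 stood at -0.004 with upper-quartile factors. With the gene length offset, without and with the block, Psmg4 stood at 0.114 and 0.112 and Psmd10 at 0.019 and 0.017. The causes were not tested. Depth limits Psmg3, Psmc3ip, Psma8 and Psmb11, the genes with the fewest counts.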
